A study of Mus musculus with 12 samples.

Results

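The comparison set the submandibular glands (SMGs) of 3 *Pou2f3* knockout females against those of 3 wild-type females, which were 6 of the 12 libraries of the series. The members were chosen by the labels alone, as the libraries of female mice of either genotype, and the 6 male libraries entered only as a background. Every mouse was 8 weeks old. The wild-type mice were C57BL/6J, and the knockout mice were C57BL/6J-Pou2f3em1Cbwi/J, which are Pou2f3-/- on the same strain. Both strains came from 1 supplier, and whether the wild-type mice were littermates of the knockout mice is not given in the sources used here. The allele is global, so *Pou2f3* was missing from every organ and not only from the gland. RNA was taken from the whole SMG, so that fewer cells of a type and less RNA per cell cannot be told apart in any value below. The 3 libraries of a group were separate mice by the replicate numbers, and p-values measure the spread between these libraries. The question put to the females was which functions of the gland differ when tuft cells (TCs) cannot form.

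The SMG makes saliva in acinar cells, which secrete water, salt, mucins and enzymes, and the fluid then runs through intercalated, convoluted and striated ducts that take back salt and add proteins. Female mouse SMGs hold more acinar tissue than male glands, in which androgens enlarge the granular convoluted tubules that store growth factors and kallikreins. TCs are rare chemosensory epithelial cells with a taste-type signalling cascade, and POU2F3 is the transcription factor without which they are not made. Most of the mass of secretion thus passes through a small set of very abundant acinar transcripts and through the machinery of the endoplasmic reticulum (ER) and Golgi that handles their proteins.

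The female libraries held 47031917 to 67742982 estimated counts, of which 52.1 to 56.2% in knockout and 57.6 to 65.5% in wild-type females came from protein-coding genes. Levels are given as adjusted CPM, which are counts per 1e+06 of a library size corrected for composition by the trimmed mean of M-values (TMM). The TMM factors were 0.902 to 1.03 in knockout and 0.625 to 0.759 in wild-type females, so wild-type levels stand on a smaller effective library than their totals. A count of 3, taken as the limit that a count of 0 allows, was 0.0504 to 0.0782 adjusted CPM. A differentially expressed gene (DEG) had an adjusted p under 0.05 in the quasi-likelihood test of edgeR, with p-values adjusted by the method of Benjamini and Hochberg over all 17893 genes tested, of which 14181 were protein-coding. KO or WT with a number names a replicate of the females. Up-regulated and down-regulated always mean higher and lower in knockout than in wild-type females.

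Acinar and ductal markers were present in all 6 libraries. The acinar marker *Mucl2*, a mucin-like product, alone held 19.4 to 21.0% of the counts in knockout and 24.9 to 33.6% in wild-type females. *Krt8*, a keratin of simple and ductal epithelium, had 76.6, 69.2 and 65.2 in the knockout females and 80.5, 107 and 100.3 in the wild-type females adjusted CPM, and its partner *Krt18* had 111, 90.5 and 84.97 in the knockout females and 96.7, 135 and 117 in the wild-type females. The log2 fold change of *Krt8* was −0.45 and reversed to 0.071 with library totals. TC markers could not check the genotype at this depth. *Pou2f3* had 0, 0 and 0 counts in the knockout females and 1, 0 and 2 counts in the wild-type females, and *Gnat3*, the taste G protein subunit, and *Il25*, the TC cytokine, had 0 counts in all of them. Of the 21 TC markers, 12 passed the filter on low counts, 2 were up and 1 was down (16.7% and 8.33%, 0 of 12 in the top 20% by level). *Tas1r3*, a sweet and umami taste receptor subunit, stood at 2.56, 2.28 and 3.54 in the knockout females and 1.05, 0.785 and 0.626 in the wild-type females, so it was higher without *Pou2f3* (log2 fold change 1.75 ± 0.29 (SE), adjusted p = 0.00082 by edgeR). With library totals as the scale 4 were up and 0 down, and without each female library in turn the counts were 1 to 2 up and 0 to 1 down. Markers of other tissues were near absent, since the 12 skeletal muscle genes summed to 1.099 to 1.415 adjusted CPM in knockout and 1.40 to 2.60 in wild-type females, and the 9 red blood cell genes to 4.195 to 4.99 and 5.82 to 8.06.

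The size of the comparison moved with single libraries of either genotype and with the scale. Over all genes tested, coding and noncoding, the Pearson correlation of log2 levels was 0.972 to 0.975 among knockout females and 0.965 to 0.973 among wild-type females. Between the groups it was 0.929 to 0.967, lowest between WT replicate 3 and KO replicate 3 and highest between WT replicate 1 and KO replicate 2. In WT replicate 3 *Mucl2* took the most counts and the TMM factor was lowest. The up-regulated coding genes numbered 1343 without WT replicate 3 and 1355 without KO replicate 1, where all 6 libraries gave 2080. The coding genes down by more than 2-fold numbered 409 without WT replicate 1, 371 without KO replicate 2 and 348 without WT replicate 2, where all 6 gave 203. With library totals in place of the TMM factors, a setting chosen after seeing the data, 5102 coding genes were up (36.0%) and 348 down (2.45%), and the median log2 fold change of all genes moved from 0.03 to 0.53 and that of coding genes from −0.08 to 0.42. The median of each of the 42 gene lists described below changed with it, and in 19 lists its sign flipped. The median of a list minus the median of all coding genes had the same sign on both scales in 42 of 42 lists. A change of scale moves all genes by nearly the same amount, so this agreement was fixed in advance and favours neither scale. Where the median of a list is given it is therefore relative to that of coding genes, followed by its value without any female library that turned its sign or moved it by more than 1.5 times, and calls of a list are followed by those with library totals.

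Of the 14181 coding genes, 2080 (14.7%) were up-regulated and 3386 (23.9%) down-regulated. The changes were mostly small, with 647 (4.56%) up and 203 (1.43%) down by more than 2-fold. Knockout and wild-type females did not overlap in 2871 coding genes with the knockout higher (20.2%) and in 4166 with the knockout lower (29.4%). The falls sat among the abundant transcripts. In the 20% of coding genes with the highest level 51.2% were down-regulated and 11.7% up-regulated, and in the 20% with the lowest level 1.48% were down and 11.6% up. The same contrast in males gave 41 coding DEGs (0.289%), and the genotype effect differed between the sexes in 3775 coding genes (26.6%) by the interaction test, a count that was 2029 without male WT replicate 1, 2348 without male WT replicate 3 and 2503 without male KO replicate 3. In 957 of the 2080 up-regulated genes (46.0%) the 3 wild-type females lay below all 9 other libraries of the series, and in 1318 of the 3386 down-regulated genes (38.9%) they lay above all 9. These shares were near those of all coding genes without overlap between the female groups, of which 1209 of 2871 (42.1%) and 1564 of 4166 (37.5%) had the wild-type females outermost. In these DEGs the knockout females lay on the side of the males of either genotype, and a change of the knockout females cannot be told apart from a displacement of the 3 wild-type females in these libraries.

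The lists with the largest shares of down-regulated members were the proteasome, vesicle coats, the tricarboxylic acid cycle, the respiratory chain and ER folding. Each count of a list is followed by the percentages up and down and by how many of its genes were in the top 20% of coding genes by level, since 14.7% of coding genes were up and 23.9% down overall but 11.7% and 51.2% in that top 20%. More members were down than up in 31 lists and more up than down in 8. The lists held 1150 genes, of which 1050 were tested.

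**Figure D1:**
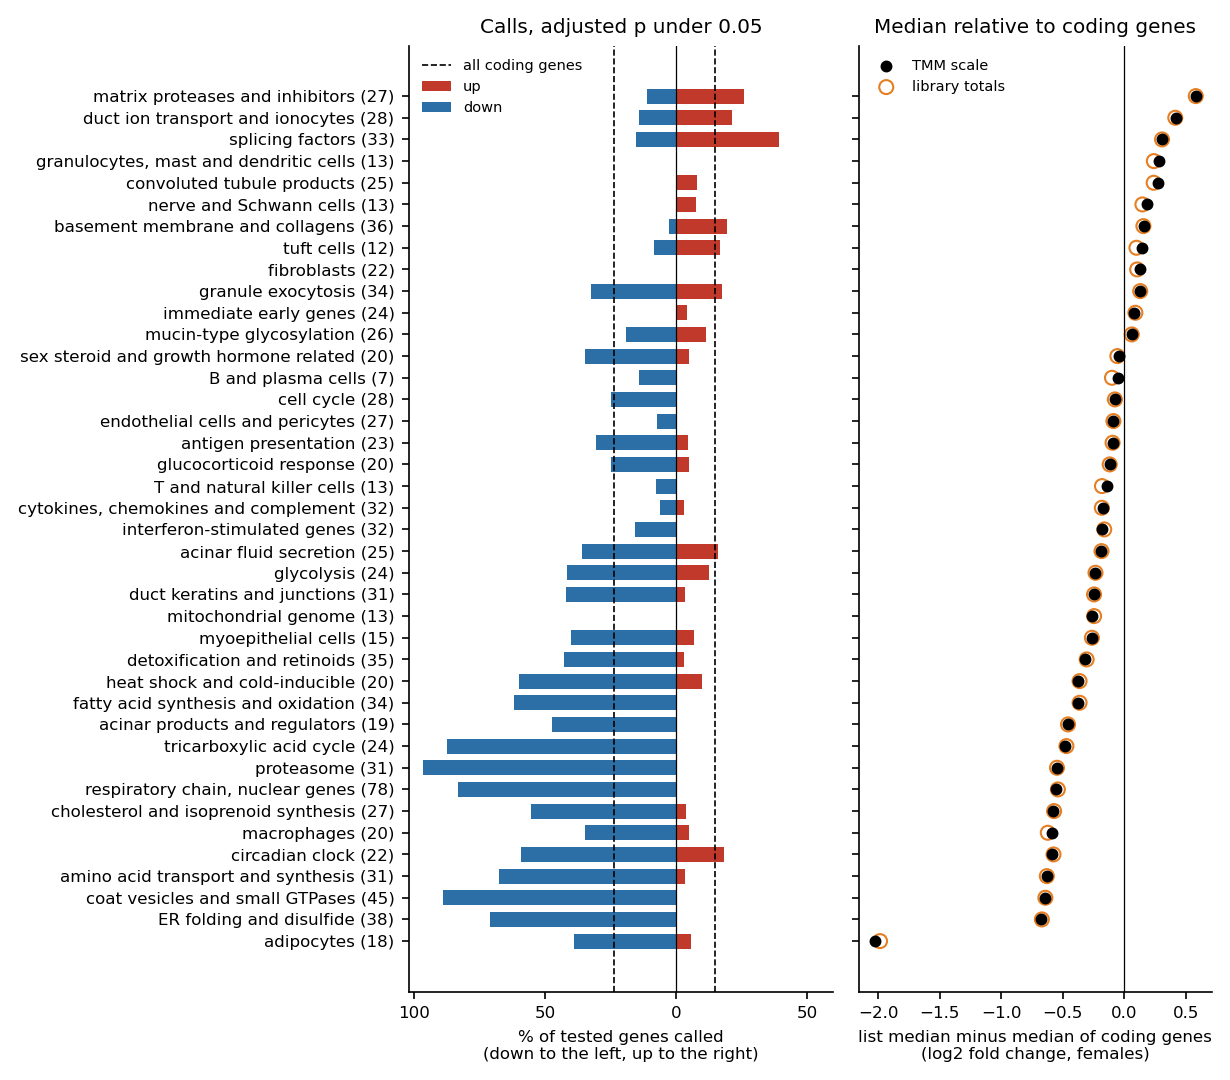
Calls and medians of the gene lists other than skeletal muscle and red blood cells (number tested in brackets), ordered by median, in knockout against wild-type females. The left panel gives the percentage of tested genes down (blue, to the left) and up (red, to the right), with dashed lines at 23.9% and 14.7% for all coding genes, and the right panel the list's median log2 fold change minus that of coding genes, with TMM (filled) and library totals (open), which lie within 0.05 of each other in every list.

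Several abundant secreted products of acinar cells were lower in knockout females on the TMM scale, with a share of falls near that of other abundant genes. Of 19 acinar products and regulators tested, 0 were up and 9 down (0% and 47.4%, 15 of 19 in the top 20% by level), and the median lay −0.46 (−0.96 without KO 3) from that of coding genes on the log2 scale. Scaled to library totals, 0 were up and 2 down. *Mucl2* stood at 187991, 222816 and 212069 in the knockout females and 327904, 388314 and 537451 in the wild-type females adjusted CPM, and the groups did not overlap (log2 fold change −1.01 ± 0.26 (SE), adjusted p = 0.01 by edgeR). *Pip*, the prolactin-inducible protein of saliva, had 4350.4, 4961 and 4798 in the knockout females and 7799, 8819 and 12254 in the wild-type females. Every knockout female was again below every wild-type female, and WT replicate 3 was the highest of all (log2 fold change −1.03 ± 0.23 (SE), adjusted p = 0.0046 by edgeR). *Scgb2b27* and *Scgb1b27*, secretoglobins of the androgen-binding protein family, whose similar copies may divide reads, fell with log2 fold changes of −1.01 and −0.91, and *Car6*, the carbonic anhydrase secreted into saliva, with −0.85. *Lpo*, the salivary peroxidase, had 459, 334 and 374 in the knockout females and 695, 747 and 775 in the wild-type females (log2 fold change −0.93 ± 0.20 (SE), adjusted p = 0.0032 by edgeR). On the scale of library totals the falls shrank to −0.49 for *Mucl2*, −0.51 for *Pip* and −0.41 for *Lpo*, and 2 genes of the list kept a call.

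A pair of very abundant products outside the list fell as well. *Scgb2b26*, a further secretoglobin, had 5747, 6824 and 6840.4 in the knockout females and 13107, 15143 and 20151 in the wild-type females adjusted CPM (log2 fold change −1.32 ± 0.24 (SE), adjusted p = 0.0013 by edgeR). *Wfdc12*, a secreted protein with a whey acidic protein domain, had 364, 298 and 355 in the knockout females and 686, 1141 and 954 in the wild-type females (log2 fold change −1.45 ± 0.21 (SE), adjusted p = 0.00039 by edgeR). The lowest wild-type female was above the highest knockout female in both. *Prol1*, a proline-rich salivary product, had 24200.3, 30560.00 and 28103 in the knockout females and 39464, 38175 and 42583 in the wild-type females, which also did not overlap but missed the threshold (adjusted p = 0.077 by edgeR). *Klk1*, tissue kallikrein, had 5612, 7733 and 4211 in the knockout females and 3882, 7382 and 6699.9 in the wild-type females, a full overlap with a log2 fold change of −0.03.

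Among the regulators of the acinar programme, *Xbp1*, the transcription factor that expands the secretory ER, had 151, 146 and 165 in the knockout females and 239, 326 and 359 in the wild-type females adjusted CPM (log2 fold change −1.002 ± 0.15 (SE), adjusted p = 0.00045 by edgeR). It stayed a DEG with library totals (−0.48). *Agr2*, an ER disulfide isomerase needed for mucins, fell by 0.98 on the log2 scale. *Bhlha15*, also known as Mist1, which matures the acinar secretory apparatus, had 307, 236 and 262 in the knockout females and 296, 344 and 318 in the wild-type females, and *Spdef*, a mucous cell factor, 34.4, 26.4 and 39.7 in the knockout females and 38.2, 41.3 and 43.2 in the wild-type females. Both overlapped between groups and neither was a DEG.

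Some mucous and serous products were set by single libraries. *Muc19*, the large gel-forming mucin of sublingual and minor glands, stood at 8.61, 7.15 and 4902 in the knockout females and 9.98, 174 and 7.93 in the wild-type females, and *Dcpp3*, a demilune cell product, at 0.2198, 0.168 and 467 in the knockout females and 0.117, 28.4 and 0.0261 in the wild-type females. Both were high in KO replicate 3 and, at a lower level, in WT replicate 2. Their share in the differences of those libraries was not tested. *Smgc*, the submandibular gland protein C of intercalated and immature acinar cells, had 1127, 1585 and 962 in the knockout females and 414, 3349 and 3645 in the wild-type females, with WT replicate 1 the lowest of all, and no call (adjusted p = 0.6 by edgeR). *Muc2*, the intestinal mucin, was a DEG (log2 fold change 5.80 ± 1.49 (SE), adjusted p = 0.009 by edgeR), with 0.1199, 3.68 and 0.3002 in the knockout and 0, 0.0449 and 0.0261 in the wild-type females. KO replicate 2 carried the mean, and without KO 2 the call was lost, with log2 fold change of 3.05. The 3 knockout libraries held 239 counts in all and the 3 wild-type libraries 3, a ratio of 68.5 per effective library size (exact 95% interval 23.2 to 334 for counting error alone), and the fitted fold change depends on the prior count.

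**Figure D2:**
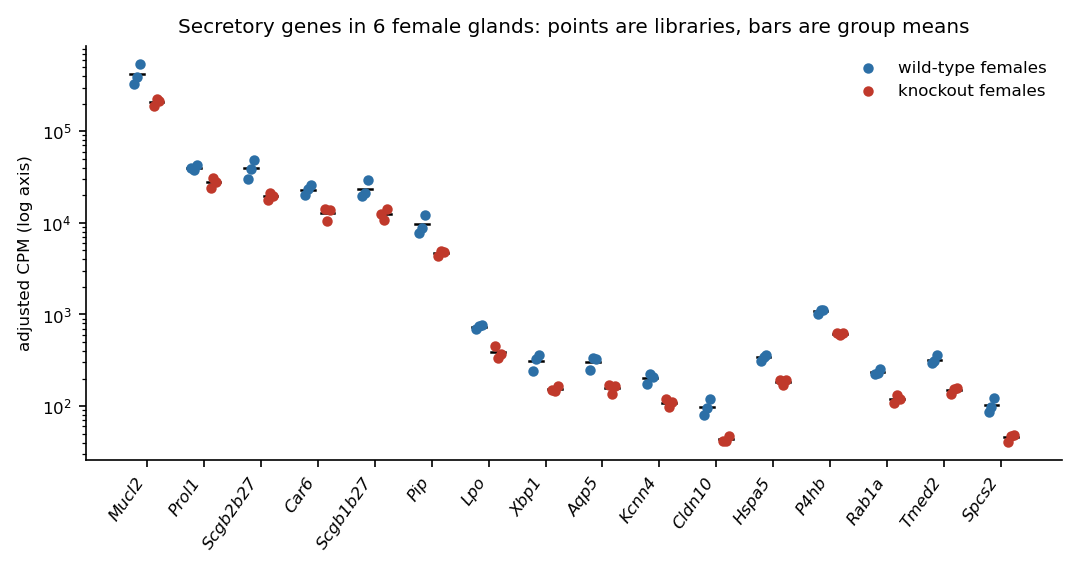
Adjusted CPM (log axis) of acinar products, secretory regulators and secretory pathway genes in each female library, with 3 knockout and 3 wild-type points a gene and a bar at each group's mean. The wild-type points of *Mucl2*, *Pip* and *Xbp1* lie above every knockout point, while with library totals the log2 fold changes are −0.49, −0.51 and −0.48.

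The machinery that folds and carries secreted proteins moved together and almost entirely downward. Of 45 genes for vesicle coats and their small GTPases, 0 were up and 40 down (0% and 88.9%, 39 of 45 in the top 20% by level), and the median lay −0.65 from that of coding genes. On the scale of library totals 3 were up and 17 down. Leaving out 1 female library at a time gave 0 up and 39 to 41 down. *Copz1*, a subunit of the COPI coat that returns vesicles from the Golgi to the ER, had 25.6, 27.5 and 27.98 in the knockout females and 46.6, 51.7 and 52.04 in the wild-type females (log2 fold change −0.89 ± 0.09 (SE), adjusted p = 8.5e-05 by edgeR). *Sar1a*, the GTPase that starts the COPII coat of vesicles leaving the ER, had 41.8, 43.5 and 47.5 in the knockout females and 79.4, 80.98 and 87.4 in the wild-type females (log2 fold change −0.90 ± 0.10 (SE), adjusted p = 0.00019 by edgeR). In neither gene did the groups overlap, and each knockout group spanned a narrow range. *Tmed2*, a cargo receptor of the p24 family, fell by 1.101 on the log2 scale, *Lman1*, the lectin that ferries glycoproteins, by 0.996 and its partner *Mcfd2* by 1.03. *Sar1b*, the other SAR1 GTPase, had 21.1, 29.7 and 25.9 in the knockout females and 48.5, 46.4 and 57.05 in the wild-type females and *Arf4*, a GTPase of the Golgi, 115, 138 and 128 in the knockout females and 225, 242 and 253 in the wild-type females, and they fell by 0.99 and 0.92. *Rab1a*, which tethers vesicles at the Golgi, had 109, 131 and 121 in the knockout females and 226, 233 and 254 in the wild-type females. In males the log2 fold changes of *Copz1*, *Sar1a*, *Tmed2* and *Rab1a* were 0.06, 0.04, −0.03 and 0.03.

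Of 38 genes for folding and disulfide formation in the ER, 0 were up and 27 down (0% and 71.1%, 30 of 38 in the top 20% by level), with a median −0.68 from that of coding genes, and all 38 fold changes were below 0 with TMM. Under library totals 0 were up and 12 down. Without each female library in turn the counts were 0 up and 20 to 29 down. *Spcs2*, a subunit of the signal peptidase that trims new secretory proteins, had 41.01, 47.3 and 48.5 in the knockout females and 85.5, 98.7 and 121 in the wild-type females (log2 fold change −1.16 ± 0.15 (SE), adjusted p = 0.00027 by edgeR). The other signal peptidase subunits *Spcs1* and *Spcs3* fell by 0.97 and 1.09. *Dnajc3*, a co-chaperone of the ER lumen that also restrains the kinase PERK, had 130.00, 131 and 148 in the knockout females and 259.7, 266 and 289.6 in the wild-type females (log2 fold change −0.998 ± 0.17 (SE), adjusted p = 0.00091 by edgeR). *Manf*, a secreted stress-responsive protein, and *Herpud1*, an organiser of ER-associated degradation, each fell by 1.17. *P4hb*, a protein disulfide isomerase and one of the more abundant genes of the list, had 625, 603 and 631 in the knockout females and 1014, 1128 and 1122 in the wild-type females. Its groups were separated by a gap wider than the range within either one. *Hspa5*, the main Hsp70 chaperone of the ER known as BiP, had 192, 169 and 194 in the knockout females and 313, 347 and 362 in the wild-type females (log2 fold change −0.88 ± 0.31 (SE), adjusted p = 0.04 by edgeR), and without KO 1, KO 2, KO 3, WT 2 and WT 3 in turn the call was lost, with log2 fold changes of −0.96 to −0.87.

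Promoters of these lists were read from RefSeq, as windows of 250 bases before to 50 bases after the annotated start in the build GRCm38.p6. The ER stress element, spelled CCAAT, then 9 bases of any kind, then CCACG, is the sequence by which ATF6 and XBP1 are known to act on chaperone genes. Searched on both strands, it was present in 0.119% of the 32851 windows and in 20 of the 10956 coding genes tested that had a window (0.183%). It was present in 10 of 32 ER folding genes with a window (31.2%), which were *Hspa5*, *Hsp90b1*, *Calr*, *Canx*, *Pdia6*, *Ero1b*, *Dnajc3*, *Creld2*, *Syvn1* and *Derl3*, and in 0 of 38 vesicle coat genes. Of the 10 ER genes with the element 7 were down, with a median log2 fold change of −0.74, and of the 22 without it 15 were down, with −0.70. For *Hsp90b1*, without KO 1, KO 2, KO 3, WT 2 and WT 3 in turn the call was lost, with log2 fold changes of −0.73 to −0.60, for *Derl3*, without KO 1, KO 2, KO 3, WT 2 and WT 3 in turn the call was lost, with log2 fold changes of −0.68 to −0.50, and for *Hspa5* the same 5 libraries had this effect. The windows of a pair of these genes are shown as examples of the element, which is in capitals. They lie at chr2:34771840-34772139 on the plus strand for *Hspa5* and at chr14:118937682-118937981 on the plus strand for *Dnajc3*.
Hspa5: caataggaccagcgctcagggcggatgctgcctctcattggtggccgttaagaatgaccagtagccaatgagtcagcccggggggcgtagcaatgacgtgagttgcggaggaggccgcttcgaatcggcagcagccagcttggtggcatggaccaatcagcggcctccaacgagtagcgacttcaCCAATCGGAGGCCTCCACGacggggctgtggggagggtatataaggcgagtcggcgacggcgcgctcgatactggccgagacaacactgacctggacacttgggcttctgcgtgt
Dnajc3: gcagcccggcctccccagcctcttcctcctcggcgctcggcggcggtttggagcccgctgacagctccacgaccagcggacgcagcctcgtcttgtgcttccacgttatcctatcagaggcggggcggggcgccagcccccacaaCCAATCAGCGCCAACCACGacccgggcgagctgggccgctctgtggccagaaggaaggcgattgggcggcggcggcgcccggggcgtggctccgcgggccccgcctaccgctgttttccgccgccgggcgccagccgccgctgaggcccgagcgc

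Later steps of secretion were mixed. Of 34 genes of granule exocytosis, 6 were up and 11 down (17.6% and 32.4%, 12 of 34 in the top 20% by level), and the median lay 0.12 (0.08 without KO 3, 0.02 without WT 1, 0.07 without WT 2) from that of coding genes. Library totals gave 16 up and 0 down, and without each female library in turn the counts were 2 to 4 up (3 without KO 1, 3 without KO 3, 3 without WT 2, 2 without WT 3) and 10 to 12 down. *Rab3d*, the GTPase on mature secretory granules, had 102, 93.9 and 96.9 in the knockout females and 162, 190.1 and 180.4 in the wild-type females (log2 fold change −0.86 ± 0.13 (SE), adjusted p = 0.00052 by edgeR). *Prkar2a*, a regulatory subunit of the kinase that cyclic AMP switches on in salivary secretion, fell by 0.81. *Stxbp2*, which guides the fusion of granules, rose by 0.84 and *Myo5c*, a motor of secretory vesicles, by 0.79. Their knockout values, 38.5, 29.4 and 33.9 and 137, 99.6 and 124, all lay above the wild-type values of 20.1, 19.5 and 17.2 and 61.1, 77.3 and 69.4.

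Of 26 genes of mucin-type glycosylation, 3 were up and 5 down (11.5% and 19.2%, 5 of 26 in the top 20% by level), with a median 0.06 (0.03 without KO 1, −0.08 without KO 3, 0.04 without WT 1, 0.02 without WT 2, 0.01 without WT 3) from that of coding genes. The counts with library totals were 5 up and 1 down, and without each female library in turn the counts were 1 to 5 up (1 without KO 1, 5 without WT 1) and 3 to 5 down (3 without WT 3). *Galnt3*, an enzyme that starts O-glycans, had 73.2, 83.05 and 91.5 in the knockout females and 174, 177 and 222 in the wild-type females (log2 fold change −1.21 ± 0.17 (SE), adjusted p = 0.00037 by edgeR). *C1galt1*, which makes the core 1 glycan, fell by 0.66 and its chaperone *C1galt1c1* by 0.71. Among the genes of the list that were up was the mucin *Muc2* itself, with a log2 fold change of 5.80. Its call was lost without KO 2, with a log2 fold change of 3.05.

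Of 25 genes of acinar fluid secretion, 4 were up and 9 down (16% and 36%, 17 of 25 in the top 20% by level), and the median lay −0.19 from that of coding genes. When libraries were scaled to totals, 6 were up and 1 down, and without each female library in turn the counts were 4 up and 7 to 13 down. *Aqp5*, the apical water channel of acinar cells, had 169, 136 and 167 in the knockout females and 248, 333 and 323 in the wild-type females (log2 fold change −0.94 ± 0.16 (SE), adjusted p = 0.0011 by edgeR). No knockout value reached the lowest wild-type value. *Kcnn4*, a calcium-activated potassium channel, had 118, 97.5 and 111 in the knockout females and 174, 222 and 208 in the wild-type females (log2 fold change −0.89 ± 0.15 (SE), adjusted p = 0.00098 by edgeR). *Slc12a2*, the basolateral NKCC1 cotransporter that loads chloride into the cell, had 1088, 1399.6 and 1294 in the knockout females and 1527, 2190.4 and 2542 in the wild-type females (log2 fold change −0.73 ± 0.24 (SE), adjusted p = 0.03 by edgeR), and without KO 1, WT 2 and WT 3 in turn the call was lost, with log2 fold changes of −0.74 to −0.60. *Cldn10*, a claudin of leaky paracellular paths, fell by 1.19. With library totals these log2 fold changes were −0.41 for *Aqp5*, −0.37 for *Kcnn4*, −0.21 for *Slc12a2* and −0.66 for *Cldn10*.

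*Adra1a*, an alpha-1 adrenergic receptor coupled to calcium, had 39.2, 44.03 and 34.3 in the knockout females and 23.8, 23.1 and 18.6 in the wild-type females (log2 fold change 0.84 ± 0.14 (SE), adjusted p = 0.00076 by edgeR). *Itpr2*, a calcium release channel of the ER downstream of such receptors, rose by 0.68, although it overlaps a gene on the same strand and its counts are uncertain. *Adrb1*, a beta-adrenergic receptor that signals through cyclic AMP, had 43.3, 35.5 and 33.1 in the knockout females and 54.95, 61.4 and 61.5 in the wild-type females (log2 fold change −0.67 ± 0.10 (SE), adjusted p = 0.0005 by edgeR). In males *Adra1a* had a log2 fold change of −0.22 and *Adrb1* of −0.42. *Slc4a2*, a chloride and bicarbonate exchanger, rose by 0.48.

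Few products of convoluted tubules passed the test. Of 25 tested, 2 were up and 0 down (8% and 0%, 14 of 25 in the top 20% by level), with a median 0.27 (−0.06 without KO 2, 0.50 without KO 3, 0.07 without WT 1) from that of coding genes. Scaling to totals gave 9 up and 0 down, and without each female library in turn the counts were 0 to 2 up (0 without KO 1, 0 without KO 2, 0 without WT 1, 0 without WT 3) and 0 to 2 down (2 without WT 1). *Ren1*, renin, had 1.94, 1.98 and 0.836 in the knockout females and 0.486, 0.8302 and 0.417 in the wild-type females (log2 fold change 1.46 ± 0.44 (SE), adjusted p = 0.021 by edgeR), and without KO 1, KO 2, WT 1 and WT 3 in turn the call was lost, with log2 fold changes of 1.22 to 1.27. The knockout females were higher, with KO replicate 3 nearest to the wild type. *Egf*, epidermal growth factor, had 698, 922 and 398 in the knockout females and 340.4, 597 and 581 in the wild-type females and *Klk1b26*, a glandular kallikrein, 694, 1011 and 367 in the knockout females and 415, 711 and 662 in the wild-type females. The groups overlapped in both, with KO replicate 2 above every wild-type female, and neither was a DEG. The Klk1b genes are near-identical copies, so reads may be divided among them. Male levels were of another order, at 53022 ± 7406 (SD, n = 3) in knockout and 47279 ± 13709 (SD, n = 3) in wild-type males for *Egf*, which female glands of either genotype did not approach.

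Of 31 genes for duct keratins and junctions, 1 was up and 13 down (3.23% and 41.9%, 18 of 31 in the top 20% by level), with a median −0.25 from that of coding genes. With library totals as the scale 5 were up and 0 down, and without each female library in turn the counts were 1 to 2 up and 9 to 17 down. *Gjb2*, a connexin, had 36.5, 38.3 and 38.4 in the knockout females and 56.8, 67.2 and 71.3 in the wild-type females (log2 fold change −0.79 ± 0.10 (SE), adjusted p = 0.00023 by edgeR). *Gjb1*, the connexin of acinar gap junctions, fell by 0.80. With library totals their log2 fold changes were −0.28 and −0.28. The member that rose, *Tjp3* (the tight junction scaffold ZO-3, ENSMUSG00000034917, chromosome 10, 81109034 to 81127417 in GRCm39), had 33.9, 28.1 and 24.2 in the knockout females and 11.7, 14.1 and 13.2 in the wild-type females (log2 fold change 1.14 ± 0.12 (SE), adjusted p = 0.00016 by edgeR). No knockout value reached down to the wild-type range, and the male log2 fold change was 0.52.

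Of 28 genes for ductal ion transport and ionocytes, 6 were up and 4 down (21.4% and 14.3%, 6 of 28 in the top 20% by level), with a median 0.42 from that of coding genes. Scaled to library totals, 15 were up and 0 down, and without each female library in turn the counts were 3 to 7 up (3 without KO 1) and 2 to 5 down (2 without KO 1, 2 without KO 3, 2 without WT 2). *Slc5a5*, the sodium iodide symporter, had 3.52, 2.45 and 2.32 in the knockout females and 1.401, 0.942 and 1.28 in the wild-type females (log2 fold change 1.19 ± 0.25 (SE), adjusted p = 0.003 by edgeR). *Nedd4l*, a ubiquitin ligase of the epithelial sodium channel, had 39.3, 29.4 and 35.8 in the knockout females and 24.6, 23.2 and 21.2 in the wild-type females (log2 fold change 0.60 ± 0.15 (SE), adjusted p = 0.0093 by edgeR), and without KO 1 the call was lost, with log2 fold change of 0.46. The knockout and wild-type values did not overlap in either gene. *Nr3c2*, the mineralocorticoid receptor, rose by 0.70 and *Kcnq1*, a potassium channel, by 0.81, both with a same-strand overlap. *Ascl3*, which marks ionocyte precursors of the duct, went the other way with 2.62, 5.49 and 3.41 in the knockout females and 5.797, 9.69 and 6.91 in the wild-type females (log2 fold change −0.95 ± 0.29 (SE), adjusted p = 0.023 by edgeR), and without KO 1, KO 3 and WT 2 in turn the call was lost, with log2 fold changes of −0.92 to −0.77. *Fxyd3*, an ion transport regulator, had 51.4, 49.1 and 58.04 in the knockout females and 72.7, 98.2 and 98.9 in the wild-type females (log2 fold change −0.77 ± 0.14 (SE), adjusted p = 0.0014 by edgeR). *Cftr*, the chloride channel, had 19.6, 19.3 and 20.1 in the knockout females and 8.07, 14.7 and 13.1 in the wild-type females and just missed the threshold (adjusted p = 0.054 by edgeR).

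Of 15 myoepithelial genes, 1 was up and 6 down (6.67% and 40%, 6 of 15 in the top 20% by level), with a median −0.26 (−0.15 without KO 3) from that of coding genes. On the scale of library totals 3 were up and 0 down, and without each female library in turn the counts were 1 up and 3 to 8 down (3 without KO 3, 3 without WT 3). *Acta2*, smooth muscle actin, had 42.4, 37.1 and 35.04 in the knockout females and 54.99, 72.3 and 78.6 in the wild-type females (log2 fold change −0.84 ± 0.17 (SE), adjusted p = 0.0026 by edgeR). *Tagln*, transgelin, fell by 0.80. *Smtn*, smoothelin, rose by 0.79.

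Lists of fibroblast, endothelial and nerve markers held few calls. In the lists of basement membrane and of matrix proteases 19.4 and 25.9% of tested genes were up and 2.78 and 11.1% down, beside 14.7% up and 23.9% down over coding genes. Of 22 fibroblast genes 0 were up and 0 down by edgeR, with 0 unadjusted p under 0.05, where 47.3% of coding genes had one, and 0 DEGs by DESeq2, which called 40.7% of coding genes. Under library totals 4 were up and 0 down. *Col1a1* and *Pdgfra*, the fibrillar collagen chain and the growth factor receptor of fibroblasts, had log2 fold changes of 0.25 and 0.22 with overlapping groups. Of 27 endothelial and pericyte genes 0 were up and 2 down (0% and 7.41%, 0 of 27 in the top 20% by level), and of 13 nerve and Schwann cell genes 1 was up and 0 down (7.69% and 0%, 2 of 13 in the top 20% by level). Library totals gave 4 up and 0 down for the former list. With TMM it had 0 to 2 up (2 without WT 1) and 0 to 3 down (0 without WT 3) without each female library in turn. The counts with library totals were 2 up and 0 down for the latter, which with TMM had 0 up and 0 to 1 down without each female library in turn.

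Of 36 basement membrane and collagen genes, 7 were up and 1 down (19.4% and 2.78%, 13 of 36 in the top 20% by level), with a median 0.16 (0.26 without KO 1, 0.10 without KO 2, 0.25 without WT 1) from that of coding genes. When libraries were scaled to totals, 22 were up and 0 down, and without each female library in turn the counts were 5 to 8 up and 0 to 2 down. *Col5a3*, a minor chain of collagen V, had 11.7, 15.7 and 14.3 in the knockout females and 5.72, 4.64 and 3.52 in the wild-type females (log2 fold change 1.58 ± 0.20 (SE), adjusted p = 0.00028 by edgeR). It was a DEG in males as well, with 11.4 ± 2.94 (SD, n = 3) in knockout and 3.25 ± 0.0534 (SD, n = 3) in wild-type males and a log2 fold change of 1.81. *Spon2*, a secreted matrix protein, had 2.16, 2.42 and 1.52 in the knockout females and 0.875, 0.606 and 0.756 in the wild-type females and rose by 1.44, and in males it rose by 1.37. *Col7a1*, the anchoring fibril collagen, and *Agrn*, agrin of the basement membrane, rose by 1.16 and 0.70 in females, and their male log2 fold changes were −0.55 and −0.36.

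Of 27 matrix proteases and inhibitors, 7 were up and 3 down (25.9% and 11.1%, 3 of 27 in the top 20% by level), with a median 0.58 from that of coding genes. Scaling to totals gave 15 up and 0 down, and without each female library in turn the counts were 4 to 6 up (4 without KO 3, 4 without WT 2) and 0 to 4 down (0 without KO 1, 0 without KO 3, 1 without WT 1). *Adamts10*, a protease of microfibrils, had 28.2, 20.3 and 25.5 in the knockout females and 11.8, 7.404 and 5.32 in the wild-type females (log2 fold change 1.59 ± 0.26 (SE), adjusted p = 0.00079 by edgeR). *Adamts9*, a proteoglycan-cleaving protease, had 19.2, 17.5 and 17.7 in the knockout females and 10.4, 10.6 and 9.91 in the wild-type females (log2 fold change 0.81 ± 0.11 (SE), adjusted p = 0.00038 by edgeR). All knockout females were above all wild-type females in both genes. *Adamts15* rose by 0.77 and *Mmp9*, a gelatinase, by 1.07. *Timp3*, an inhibitor of metalloproteases, fell from 80.4, 77.6 and 67.9 to 46.5, 62.6 and 51.996, and without KO 1 and KO 3 in turn the call was lost, with log2 fold changes of −0.51 to −0.44.

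Adipocyte and macrophage genes rested on 1 wild-type library each. Of 18 adipocyte genes 1 was up and 7 down (5.56% and 38.9%, 3 of 18 in the top 20% by level), and their summed level was 225, 291 and 231 in knockout and 268, 281 and 529 in wild-type females, so WT replicate 3 stood apart. *Cfd*, adipsin, had 0.659, 2.098 and 0.193 in the knockout females and 0.798, 5.39 and 41.7 in the wild-type females, and *Ucp1*, the uncoupling protein of brown fat, 0.01998, 0.0504 and 0 in the knockout females and 0, 0.0224 and 7.87 in the wild-type females. For *Cfd*, without KO 1, KO 3 and WT 3 in turn the call was lost, with log2 fold changes of −3.80 to −1.63, and for *Ucp1*, without KO 1, KO 2, KO 3 and WT 3 in turn the call was lost, with log2 fold changes of −7.77 to 1.08. With library totals as the scale 1 was up and 1 down, and without each female library in turn the counts were 1 up and 1 to 11 down (1 without KO 1, 1 without KO 3, 11 without WT 1, 1 without WT 3). *Lipe*, the hormone-sensitive lipase, moved against its list with 31.05, 23.97 and 32.6 in the knockout females and 11.1, 8.32 and 12.9 in the wild-type females (log2 fold change 1.44 ± 0.20 (SE), adjusted p = 0.00039 by edgeR). It was higher in each knockout female than in any wild-type female.

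Of 20 macrophage genes 1 was up and 7 down (5% and 35%, 1 of 20 in the top 20% by level), and the summed level was 134, 208 and 163 in knockout and 449, 154 and 211 in wild-type females. The highest, WT replicate 1, held most of the difference. *Adgre1*, the macrophage marker F4/80, had 5.11, 7.82 and 6.65 in the knockout females and 43.4, 6.39 and 8.94 in the wild-type females, and *Itgam*, an integrin of myeloid cells, 2.797, 3.73 and 4.01 in the knockout females and 35.3, 3.23 and 3.34 in the wild-type females. For *Adgre1*, without KO 1, KO 2, KO 3 and WT 1 in turn the call was lost, with log2 fold changes of −1.77 to −0.29, and for *Itgam*, without KO 1, KO 2, KO 3 and WT 1 in turn the call was lost, with log2 fold changes of −2.13 to 0.03. Scaled to library totals, 1 was up and 0 down, and without each female library in turn the counts were 1 up and 0 to 12 down (0 without KO 1, 0 without KO 3, 0 without WT 1, 12 without WT 2). *Mertk*, a receptor for apoptotic cells, rose against its list, from 6.17, 6.103 and 5.74 to 11.7, 10.6 and 13.02, though it overlaps a gene on the same strand.

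**Figure D3:**
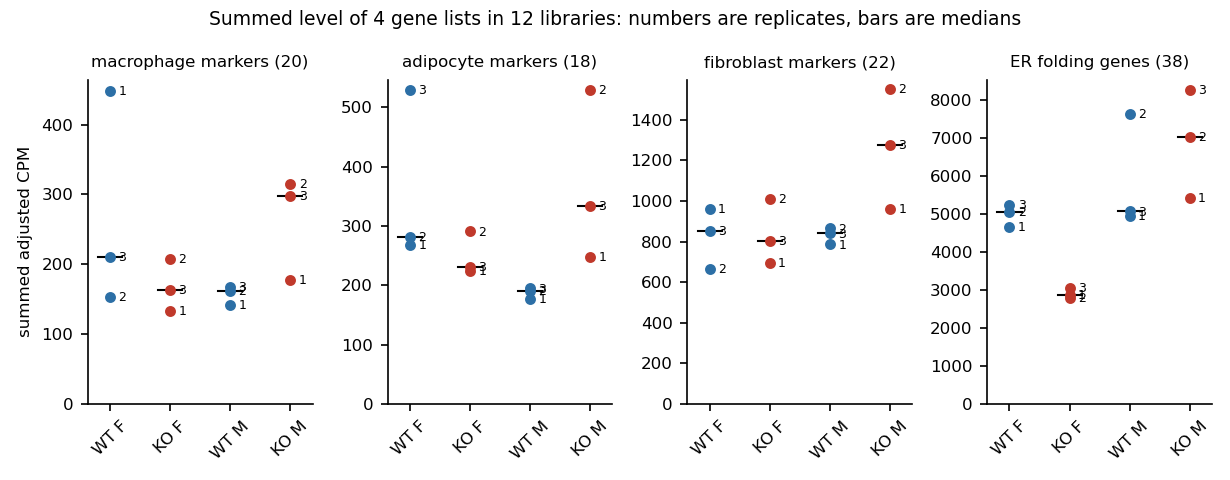
Summed adjusted CPM of gene lists in each library of the 4 groups, with 1 point a library. WT replicate 1 of the females is the high point of the macrophage panel (449, 154 and 211 in the 3 wild-type females) and WT replicate 3 that of the adipocyte panel (268, 281 and 529).

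Lymphocyte genes were scarce in all 6 libraries. Of 24 T and natural killer cell genes 13 passed the filter, 0 were up and 1 down (0% and 7.69%, 0 of 13 in the top 20% by level), and of 24 B and plasma cell genes 7 passed, 0 were up and 1 down (0% and 14.3%, 1 of 7 in the top 20% by level). *Gzma*, granzyme A, had 0.1199, 0.151 and 0.172 in the knockout females and 0.428, 0.426 and 0.574 in the wild-type females (log2 fold change −1.67 ± 0.38 (SE), adjusted p = 0.0044 by edgeR), which was the call among the T and natural killer genes. The B cell call was *Sdc1*, syndecan 1, which epithelial cells also carry, with a log2 fold change of −0.50 that reversed to 0.0032 with library totals. On the scale of library totals 0 were up and 1 down among T and natural killer genes. Under library totals 1 was up and 0 down among B and plasma cell genes. *Pigr*, the epithelial receptor that carries immunoglobulin A into saliva, had 353, 326 and 362 in the knockout females and 219, 371 and 364 in the wild-type females and overlapped between groups. Of 13 granulocyte, mast and dendritic cell genes 0 were up and 0 down by edgeR, 0 had an unadjusted p under 0.05 and 0 were DEGs by DESeq2. Library totals gave 2 up and 0 down.

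Of 23 antigen presentation genes 1 was up and 7 down (4.35% and 30.4%, 9 of 23 in the top 20% by level), with a median −0.09 (−0.15 without KO 1, −0.21 without KO 2, −0.04 without KO 3, −0.22 without WT 1, −0.16 without WT 2) from that of coding genes. The counts with library totals were 6 up and 0 down, and without each female library in turn the counts were 0 to 1 up and 6 to 8 down. *B2m*, the light chain of class I molecules, had 27.9, 43.9 and 32.5 in the knockout females and 52.2, 48.2 and 68.97 in the wild-type females (log2 fold change −0.70 ± 0.18 (SE), adjusted p = 0.01 by edgeR), and *H2-D1*, a class I heavy chain with close paralogues, had 117, 126 and 100.3 in the knockout females and 137, 180.5 and 202 in the wild-type females. With library totals they had log2 fold changes of −0.20 and −0.08. Of 32 interferon-stimulated genes 0 were up and 5 down (0% and 15.6%, 5 of 32 in the top 20% by level), a share below that of coding genes. When libraries were scaled to totals, 6 were up and 0 down, and without each female library in turn the counts were 0 up and 3 to 7 down (3 without KO 3, 3 without WT 3). *Gbp2*, a guanylate-binding protein, fell by 0.82 and *Bst2*, tetherin, by 0.84. Of 32 genes for cytokines, chemokines and complement 1 was up and 2 were down (3.12% and 6.25%, 4 of 32 in the top 20% by level). Scaling to totals gave 3 up and 0 down, and without each female library in turn the counts were 1 to 2 up and 1 to 2 down. *Ccl28*, the mucosal chemokine that draws plasma cells to glands, had 96.2, 113 and 131 in the knockout females and 159, 168 and 169.9 in the wild-type females (log2 fold change −0.54 ± 0.15 (SE), adjusted p = 0.014 by edgeR). *Ccl25*, a related mucosal chemokine with a same-strand overlap, had 8.43, 7.37 and 11.9 in the knockout females and 5.58, 4.55 and 2.56 in the wild-type females and rose by 1.12.

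Nuclear genes of the respiratory chain and genes of the tricarboxylic acid cycle were mostly lower on the TMM scale. Of 78 nuclear genes of the respiratory chain, 0 were up and 65 down (0% and 83.3%, 28 of 78 in the top 20% by level), with a median −0.55 from that of coding genes. With library totals as the scale 3 were up and 14 down, and without each female library in turn the counts were 0 up and 60 to 70 down. *Cox7a2*, a subunit of cytochrome oxidase, had 13.5, 14.1 and 13.1 in the knockout females and 24.3, 29.6 and 32.9 in the wild-type females (log2 fold change −1.09 ± 0.12 (SE), adjusted p = 0.00019 by edgeR). *Ndufs6*, of complex I, had 6.49, 7.101 and 6.73 in the knockout females and 13.3, 13.6 and 15.5 in the wild-type females (log2 fold change −1.06 ± 0.14 (SE), adjusted p = 0.00028 by edgeR). Every knockout value was below every wild-type value in both. *Sdhd* of complex II fell by 0.84, *Uqcrh* of complex III by 0.88 and *Atp5pb* of the ATP synthase by 0.86. The male log2 fold changes of the same genes ran from −0.13 for *Ndufs6* to 0.19 for *Uqcrh*.

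All 13 protein-coding genes of the mitochondrial genome had fold changes below 0 with TMM, but 0 were DEGs by edgeR. Their median lay −0.26 (−0.40 without WT 1) from that of coding genes, with 1 unadjusted p under 0.05 and 2 DEGs by DESeq2. The list's own median log2 fold change was −0.34 with TMM and 0.17 with library totals. Scaled to library totals, 0 were up and 0 down, and without each female library in turn the counts were 0 up and 0 to 3 down (3 without WT 1). *mt-Co1*, the catalytic subunit of cytochrome oxidase, had 5624, 4754 and 3842 in the knockout females and 5251, 7583 and 7046 in the wild-type females, and KO replicate 1 was above WT replicate 1. *mt-Cytb* of complex III had 1094, 1092 and 837 in the knockout females and 1131, 1539 and 1407 in the wild-type females. Under library totals the log2 fold changes of these genes were 0.04 and 0.08.

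Of 24 genes of the tricarboxylic acid cycle, 0 were up and 21 down (0% and 87.5%, 18 of 24 in the top 20% by level), and of 24 genes of glycolysis 3 were up and 10 down (12.5% and 41.7%, 11 of 24 in the top 20% by level), with medians −0.48 and −0.24 from that of coding genes. On the scale of library totals 1 was up and 0 down in the first list, so the fall of this pathway is one relative to other genes. Under library totals 5 were up and 0 down in the second, with 1 to 3 up (1 without WT 3) and 8 to 14 down without each female library in turn. *Pdhb*, a subunit of pyruvate dehydrogenase, had 24.3, 23.9 and 28.3 in the knockout females and 37.3, 39.1 and 40.1 in the wild-type females (log2 fold change −0.61 ± 0.09 (SE), adjusted p = 0.00049 by edgeR). *Eno1*, the enolase of most tissues, had 102, 97.5 and 86.7 in the knockout females and 147, 182 and 173 in the wild-type females and fell by 0.81, while *Eno3*, the enolase of muscle, rose by 1.15 from 1.32, 1.05 and 0.8604 to 2.44, 2.23 and 2.55. *Hk2*, an insulin-responsive hexokinase, fell by 0.85.

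Genes of lipid synthesis lay lower as well. Of 27 genes of cholesterol and isoprenoid synthesis 1 was up and 15 down (3.7% and 55.6%, 7 of 27 in the top 20% by level), with a median −0.58 from that of coding genes. Library totals gave 1 up and 3 down, and without each female library in turn the counts were 0 up and 11 to 18 down. *Fdft1*, squalene synthase, had 5.81, 5.22 and 5.36 in the knockout females and 9.84, 10.9 and 13.1 in the wild-type females (log2 fold change −1.04 ± 0.15 (SE), adjusted p = 0.00044 by edgeR). No knockout value reached the wild-type range. Of 34 genes of fatty acid synthesis and oxidation 0 were up and 21 down (0% and 61.8%, 13 of 34 in the top 20% by level), with a median −0.37 from that of coding genes. The counts with library totals were 4 up and 1 down. *Acly*, which makes cytosolic acetyl-CoA, had 134, 111 and 138 in the knockout females and 205, 261 and 264 in the wild-type females and fell by 0.93, and *Cpt1a*, the gate of fatty acid oxidation, fell by 0.77, so genes of both directions of the pathway were lower. *Dgat2*, which makes triglyceride, fell by 3.17, with 0.3996, 0.755 and 0.1501 in the knockout females and 1.48, 1.46 and 9.26 in the wild-type females, and WT replicate 3 was again the highest (without WT 3 the call was lost, with log2 fold change of −1.76).

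Amino acid supply gave some of the firmest falls. Of 31 genes of amino acid transport and synthesis 1 was up and 21 down (3.23% and 67.7%, 15 of 31 in the top 20% by level), with a median −0.63 from that of coding genes. When libraries were scaled to totals, 2 were up and 7 down, and without each female library in turn the counts were 0 to 1 up and 21 to 22 down. *Slc7a5*, the light chain of the large neutral amino acid transporter, had 27.2, 25.7 and 33.2 in the knockout females and 103, 73.7 and 71.4 in the wild-type females (log2 fold change −1.53 ± 0.14 (SE), adjusted p = 7.5e-05 by edgeR). *Glul*, glutamine synthetase, had 124, 133 and 121 in the knockout females and 278, 326 and 346 in the wild-type females (log2 fold change −1.33 ± 0.13 (SE), adjusted p = 0.0001 by edgeR). Both kept a log2 fold change under −0.5 with library totals (−1.04 and −0.82). *Odc1*, ornithine decarboxylase of polyamine synthesis, had 14.7, 13.9 and 15.996 in the knockout females and 37.7, 33.5 and 34.6 in the wild-type females (log2 fold change −1.25 ± 0.11 (SE), adjusted p = 4.3e-05 by edgeR), with a same-strand overlap, and *Amd1*, the next enzyme of that path, fell by 0.97. *Psat1* of serine synthesis fell by 1.79 with WT replicate 1 the highest at 33.9, 13.5 and 22.3, and *Phgdh*, the first enzyme of that path, by 0.85. In males these genes had log2 fold changes of −0.26 for *Slc7a5*, −0.48 for *Glul* and −0.12 for *Odc1*.

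Of 35 genes of detoxification and retinoid metabolism 1 was up and 15 down (2.86% and 42.9%, 3 of 35 in the top 20% by level), with a median −0.32 from that of coding genes. Scaling to totals gave 6 up and 4 down, and without each female library in turn the counts were 0 to 3 up (3 without WT 1) and 13 to 17 down. *Aldh1a7*, an aldehyde dehydrogenase, had 8.69, 10.04 and 10.2 in the knockout females and 30.4, 37.3 and 33.6 in the wild-type females (log2 fold change −1.81 ± 0.15 (SE), adjusted p = 3.5e-05 by edgeR), and it fell by 1.05 in males too. *Aldh1a3*, which makes retinoic acid, had 4.18, 5.84 and 4.503 in the knockout females and 9.01, 9.15 and 8.06 in the wild-type females and fell by 0.85 in females and by 0.9998 in males. *Txnrd1*, thioredoxin reductase, fell by 0.72.

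Genes that keep proteins in shape and remove them were lower with the secretory machinery. Of 31 proteasome genes 0 were up and 30 down (0% and 96.8%, 5 of 31 in the top 20% by level), with a median −0.55 from that of coding genes. With library totals as the scale 0 were up and 5 down, and without each female library in turn the counts were 0 up and 29 to 30 down. *Psmd2*, a subunit of the regulatory particle, had 28.4, 26.7 and 25.6 in the knockout females and 43.7, 50.04 and 48.4 in the wild-type females (log2 fold change −0.82 ± 0.10 (SE), adjusted p = 0.00027 by edgeR). Of 20 heat shock and cold-inducible genes 2 were up and 12 down (10% and 60%, 6 of 20 in the top 20% by level). Scaled to library totals, 3 were up and 2 down, and without each female library in turn the counts were 0 to 1 up (0 without KO 1, 0 without KO 3, 0 without WT 2, 0 without WT 3) and 9 to 12 down. *Hspa8*, the constitutive Hsp70, had 157, 149.96 and 177 in the knockout females and 319.8, 281 and 342 in the wild-type females and fell by 0.96, and *Hspd1*, the mitochondrial chaperonin, by 0.84.

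The circadian clock held several of the smallest adjusted p-values of the comparison, and most of its calls were shared with males. The clock runs on a loop in which BMAL1 with CLOCK or NPAS2 switches on the Per, Cry, Nr1d and Dbp family genes through E-boxes, and the products of these genes act back on the loop. Of 22 clock genes 4 were up and 13 down (18.2% and 59.1%, 11 of 22 in the top 20% by level), and 12 were DEGs in males. On the scale of library totals 8 were up and 8 down, and without each female library in turn the counts were 3 to 6 up and 12 to 14 down. *Bmal1* (ENSMUSG00000055116, chromosome 7, 112806152 to 112914735 in GRCm39) had 10.7, 10.1 and 7.72 in the knockout females and 0.759, 1.03 and 0.808 in the wild-type females (log2 fold change 3.45 ± 0.21 (SE), adjusted p = 2.0e-06 by edgeR). *Npas2*, its partner, which has a same-strand overlap, had 7.23, 6.92 and 5.02 in the knockout females and 0.525, 0.516 and 0.626 in the wild-type females (log2 fold change 3.52 ± 0.22 (SE), adjusted p = 2.0e-06 by edgeR). The lowest knockout value was several times the highest wild-type value in each. In males the same genes had log2 fold changes of 2.87 and 3.21.

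The output arm of the clock went the other way. *Dbp* (a PAR bZIP factor, ENSMUSG00000059824, chromosome 7, 45354512 to 45359627 in GRCm39) had 15.5, 11.8 and 18.4 in the knockout females and 75.3, 88.8 and 109 in the wild-type females (log2 fold change −2.58 ± 0.18 (SE), adjusted p = 7.2e-06 by edgeR), and its relatives *Tef* and *Hlf* fell by 1.41 and 1.002. *Ciart*, a repressor of BMAL1, had 0.4195, 0.403 and 0.772 in the knockout females and 3.97, 3.57 and 4.43 in the wild-type females (log2 fold change −2.91 ± 0.38 (SE), adjusted p = 0.00027 by edgeR). Each of these genes also fell in males, by 3.17 for *Dbp*, 1.41 for *Tef*, 1.34 for *Hlf* and 3.11 for *Ciart*. *Per2* fell by 1.71, *Per3* by 0.91 and *Nr1d1*, the repressor REV-ERB alpha, by 0.73. *Per1*, in contrast, had 79.4, 38.7 and 60.7 in the knockout females and 47.4, 31.4 and 39.8 in the wild-type females, an overlap with no call.

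The basic helix-loop-helix repressors and *Cry1* separated the sexes. *Bhlhe41* (ENSMUSG00000030256, chromosome 6, 145803969 to 145811430 in GRCm39), which competes with BMAL1 for E-boxes, had 4.97, 5.29 and 5.83 in the knockout females and 20.3, 18.7 and 18.7 in the wild-type females (log2 fold change −1.84 ± 0.11 (SE), adjusted p = 2.0e-06 by edgeR), and in males the fall was smaller (−0.85; female minus male −0.998, adjusted p = 0.0031 for the interaction by edgeR). *Bhlhe40*, its paralogue, had 30.6, 27.8 and 24.1 in the knockout females and 68.1, 66.6 and 69.9 in the wild-type females and fell by 1.31 in females, with a male log2 fold change of −0.14 (female minus male −1.17, adjusted p = 0.0036 for the interaction by edgeR). *Cry1* had 3.56, 3.56 and 4.65 in the knockout females and 11.7, 9.69 and 8.604 in the wild-type females and fell by 1.36, against −0.25 in males (female minus male −1.10, adjusted p = 0.013 for the interaction by edgeR). *Usp2*, a deubiquitinase with a daily rhythm in many organs, had 10.4, 9.099 and 12.2 in the knockout females and 53.1, 47.8 and 53.2 in the wild-type females (log2 fold change −2.28 ± 0.14 (SE), adjusted p = 2.0e-06 by edgeR). No time of collection is given in the sources used here, so the hour of the day and the genotype cannot be told apart in these genes.

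**Figure D4:**
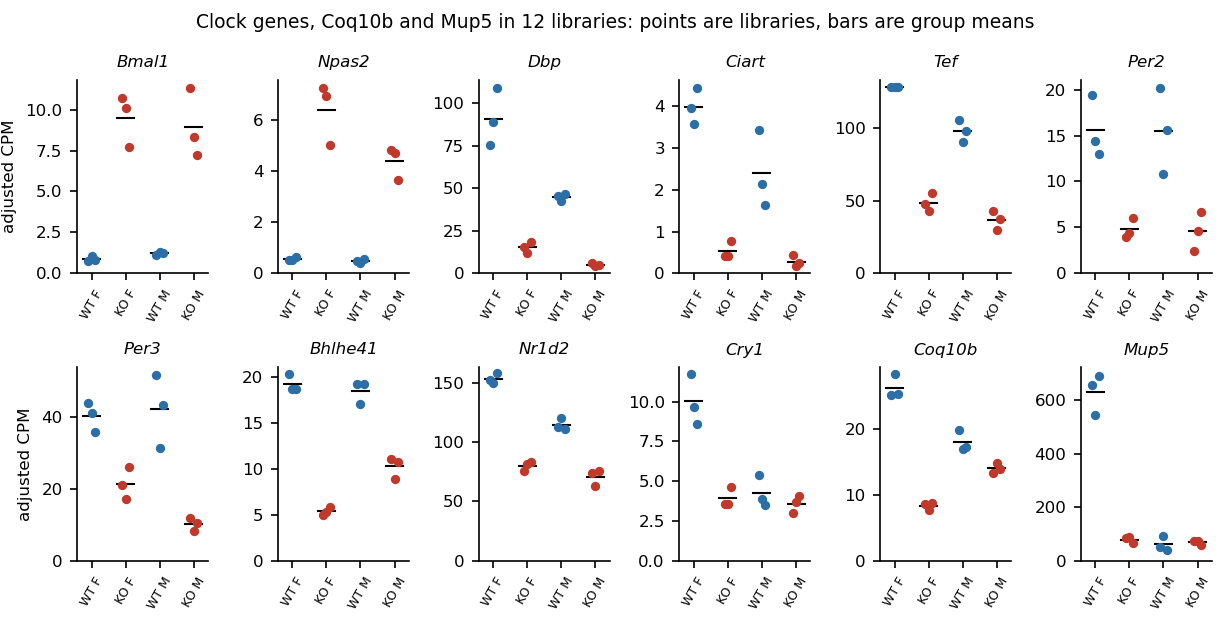
Adjusted CPM (linear axes) of clock genes, *Coq10b* and *Mup5* in each of the 12 libraries, 3 mice in each of the 4 groups. *Bmal1* and *Npas2* are higher and *Dbp*, *Ciart* and *Tef* lower in the knockout mice of both sexes, without overlap, on both the TMM and the library-total scale in females.

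Clock promoters were searched in the same RefSeq windows for the E-box, CACGTG, and for the D-box bound by DBP and its relatives, TTATGTAA, on both strands. The E-box stood in 7.15% of the 32851 windows and in 11.2% of coding genes tested that had a window, and in 5 of the 17 clock genes with a window (29.4%), namely *Ciart*, *Bhlhe41*, *Cry1*, *Tef* and *Per1*. Of these 5 genes 4 were down and 0 up, with a median log2 fold change of −1.41, and of the 12 without it 7 were down and 4 up, with −0.52. The D-box stood in 0.938% of windows, in 0.758% of such coding genes and in 1 clock gene, *Per3*. *Coq10b*, a coenzyme Q binding protein of mitochondria and one of the genes with the smallest adjusted p (8.65, 7.74 and 8.75 in the knockout females and 25.2, 28.5 and 25.4 in the wild-type females, log2 fold change −1.65 ± 0.10 (SE), adjusted p = 2.0e-06 by edgeR, with a same-strand overlap), held 1 of each. The windows below are examples from down-regulated genes that carry these letters, printed in capitals, and were chosen after the values of the genes were seen. They lie at chr3:95882179-95882478 on the minus strand for *Ciart*, with 3 E-boxes, at chr6:145865371-145865670 on the minus strand for *Bhlhe41*, with 1 E-box, at chr1:55052520-55052819 on the plus strand for *Coq10b*, with 1 E-box and 1 D-box read on the other strand, and at chr4:151044616-151044915 on the minus strand for *Per3*, with 2 D-boxes.
Ciart: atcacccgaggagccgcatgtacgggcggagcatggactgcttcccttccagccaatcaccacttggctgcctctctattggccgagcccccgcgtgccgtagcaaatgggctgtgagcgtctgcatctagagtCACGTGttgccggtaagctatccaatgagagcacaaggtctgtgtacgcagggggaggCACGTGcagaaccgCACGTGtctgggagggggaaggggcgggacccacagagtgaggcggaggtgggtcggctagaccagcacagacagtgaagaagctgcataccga
Bhlhe41: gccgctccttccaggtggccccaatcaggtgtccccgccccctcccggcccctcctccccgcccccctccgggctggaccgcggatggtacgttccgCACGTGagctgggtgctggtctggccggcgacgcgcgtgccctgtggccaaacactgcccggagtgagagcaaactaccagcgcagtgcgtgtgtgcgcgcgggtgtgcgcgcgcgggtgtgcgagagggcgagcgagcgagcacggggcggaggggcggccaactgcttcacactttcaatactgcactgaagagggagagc
Coq10b: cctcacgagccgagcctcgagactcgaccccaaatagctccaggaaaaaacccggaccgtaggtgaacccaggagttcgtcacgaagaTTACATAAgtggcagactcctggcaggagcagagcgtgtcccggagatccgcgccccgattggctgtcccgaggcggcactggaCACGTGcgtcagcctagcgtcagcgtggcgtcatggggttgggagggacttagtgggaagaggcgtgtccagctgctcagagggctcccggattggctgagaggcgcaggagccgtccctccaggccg
Per3: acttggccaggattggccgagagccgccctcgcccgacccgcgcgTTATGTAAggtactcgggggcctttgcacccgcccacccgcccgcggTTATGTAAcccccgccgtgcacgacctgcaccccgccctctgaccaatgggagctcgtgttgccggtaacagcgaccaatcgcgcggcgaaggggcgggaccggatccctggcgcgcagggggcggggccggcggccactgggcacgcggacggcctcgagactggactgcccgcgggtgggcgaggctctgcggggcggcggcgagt

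Lists of hormone response, growth and cell division gave a minority of calls each. Of 20 glucocorticoid response genes 1 was up and 5 down (5% and 25%, 6 of 20 in the top 20% by level), and of 24 immediate early genes 1 was up and 0 down (4.17% and 0%, 4 of 24 in the top 20% by level). Under library totals 8 were up and 0 down in the first list, with 0 to 2 up and 2 to 6 down (3 without KO 3, 2 without WT 3) without each female library in turn. Library totals gave 5 up and 0 down in the second, with 0 to 2 up and 0 to 1 down likewise. Of 20 genes related to sex steroids and growth hormone 1 was up and 7 down (5% and 35%, 8 of 20 in the top 20% by level). The counts with library totals were 6 up and 1 down, and without each female library in turn the counts were 1 to 2 up and 6 to 9 down. *Mup5*, a major urinary protein of a family of near-identical genes that can divide reads, had 83.5, 87.2 and 64.5 in the knockout females and 656, 543 and 691 in the wild-type females (log2 fold change −3.01 ± 0.27 (SE), adjusted p = 5.8e-05 by edgeR), and *Socs2*, a target of growth hormone, had 15.6, 18.6 and 14.002 in the knockout females and 23.01, 29.1 and 29.1 in the wild-type females and fell by 0.75. Of 28 cell cycle genes 0 were up and 7 down (0% and 25%, 1 of 28 in the top 20% by level). When libraries were scaled to totals, 2 were up and 1 down, and without each female library in turn the counts were 0 to 1 up and 5 to 8 down. *Ccnd1*, cyclin D1, had 61.7, 51.1 and 42.5 in the knockout females and 130.3, 129.8 and 171 in the wild-type females (log2 fold change −1.47 ± 0.16 (SE), adjusted p = 0.00016 by edgeR), with no overlap between groups, and *Mcm6*, a subunit of the replicative helicase, fell by 0.75.

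Splicing factors were the exception among the housekeeping lists. Of 33 tested 13 were up and 5 down (39.4% and 15.2%, 27 of 33 in the top 20% by level), with a median 0.31 from that of coding genes. Scaling to totals gave 26 up and 0 down, and without each female library in turn the counts were 8 to 13 up (8 without WT 3) and 3 to 5 down (3 without KO 1). *Clk2*, a kinase of SR proteins, had 19.9, 13.8 and 20.4 in the knockout females and 9.47, 6.01 and 4.98 in the wild-type females (log2 fold change 1.40 ± 0.26 (SE), adjusted p = 0.0016 by edgeR), and its relatives *Clk1* and *Clk4* rose by 0.93 and 0.88. *Srsf5*, an SR protein, had 133, 109 and 156 in the knockout females and 70.96, 61.7 and 43.96 in the wild-type females (log2 fold change 1.17 ± 0.19 (SE), adjusted p = 0.00068 by edgeR). *Hnrnpc*, a factor that binds poly-U tracts, fell from 47.1, 47.6 and 52.6 to 29.8, 31.6 and 30.5. WT replicate 3 was the lowest library in *Clk2*, *Srsf5* and *Clk1*.

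The coding genes with the firmest rises outside the clock were of varied function. *Ybx2*, an RNA-binding protein of germ cells, had 23.3, 18.6 and 21.2 in the knockout females and 5.78, 3.702 and 2.76 in the wild-type females (log2 fold change 2.35 ± 0.22 (SE), adjusted p = 8.2e-05 by edgeR). *Arhgef10*, a guanine nucleotide exchange factor, had 102, 87.02 and 86.7 in the knockout females and 41.8, 36.6 and 29.02 in the wild-type females (log2 fold change 1.36 ± 0.13 (SE), adjusted p = 8.8e-05 by edgeR). *Kifc2*, a kinesin, had 10.2, 7.504 and 9.54 in the knockout females and 2.94, 2.02 and 1.51 in the wild-type females (log2 fold change 2.06 ± 0.22 (SE), adjusted p = 0.00013 by edgeR). WT replicate 3 was the lowest of the 6 in each, and the male log2 fold changes were −0.05, 0.05 and −0.36. *Tmem82*, a membrane protein, rose by 2.90, *Ciz1*, a DNA replication factor, by 1.26 and *Brpf3*, a chromatin reader, by 1.15. *Wdr97* and *Sap25* rose by 3.42 and 3.93 from under 0.5 adjusted CPM in the wild type, the last with a same-strand overlap. Among the firmest falls not yet named were *Gpr155*, an integral membrane protein, with 114, 106 and 159 in the knockout females and 546, 506 and 555 in the wild-type females (log2 fold change −2.08 ± 0.18 (SE), adjusted p = 3.9e-05 by edgeR), *Lcp1*, the actin bundler plastin 2, with 86.8, 93.6 and 93.9 in the knockout females and 223, 225 and 247 in the wild-type females (log2 fold change −1.34 ± 0.10 (SE), adjusted p = 1.1e-05 by edgeR), and *Tspan4*, a tetraspanin, with 3.34, 3.39 and 3.04 in the knockout females and 11.2, 11.8 and 13.6 in the wild-type females (log2 fold change −1.90 ± 0.14 (SE), adjusted p = 1.1e-05 by edgeR). *Slc46a3*, a lysosomal transporter, fell by 1.28. None of these groups overlapped.

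Up-regulated coding genes shared features of structure. They had a median of 15 exons, against 10 over all coding genes tested and 8.5 in down-regulated genes, and 72.1% had an annotated retained-intron transcript, against 56.7% of coding genes. Their transcripts had a median GC content of 52.1%, and 30.6% overlapped another gene on the same strand, against 24.9%. Of genes with 1 to 5 exons 6.48% were up-regulated, and of genes with 19 or more 28.8% were. Among the 20% with the highest level the share of down-regulated genes went from 68.8% with 1 to 7 exons to 21.9% with 25 or more, and the share of up-regulated genes from 2.45 to 23.4%. What part RNA composition had in these shares was not tested.

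**Figure D5:**
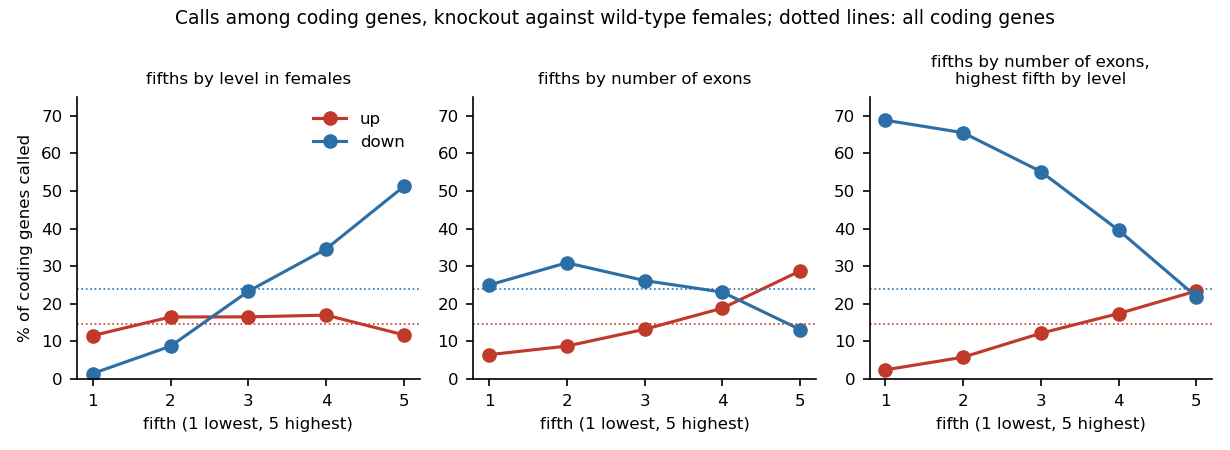
Percentage of coding genes up-regulated (red) and down-regulated (blue) in knockout females in groups of 20% by level, by exon number, and by exon number within the 20% with the highest level, with TMM. Dotted lines mark all coding genes (14.7 and 23.9%), and the lines of the right panel go from 68.8 to 21.9% down and from 2.45 to 23.4% up.

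A rise in 3 classes outside the protein-coding genes stood apart from all of these. Of 1185 tested genes of the annotation's TEC class, loci that still await an experimental test, 430 were up (36.3%, against 17.6% of all genes tested) with a median log2 fold change of 0.91. Of 1793 lncRNA genes 439 were up (24.5%, median 0.62), and of 559 pseudogenes 183 (32.7%, median 1.02). In males the medians of the 3 classes were −0.24, −0.12 and −0.25. Not every noncoding transcript rose. Of 114 tested genes grouped as other, 5 were up (4.39%, median −0.19). The abundant noncoding RNA *Rn7s1* had 347815, 433910 and 315284 adjusted CPM in the knockout females. In the wild-type females it had 454110, 489258 and 431093. Olfactory receptors, a coding family that the gland is not known to use, summed over 1193 genes to 14.7 to 17.05 adjusted CPM in knockout and 8.44 to 9.76 in wild-type females, and to 8.34 to 10.7 in knockout and 6.86 to 11.0 in wild-type males. The 335 vomeronasal receptors summed to 3.18 to 4.01 in knockout and 2.503 to 3.38 in wild-type females, which overlapped, and to 3.695 to 5.12 in knockout and 4.04 to 4.97 in wild-type males. TEC genes held 0.197 to 0.243% of counts in knockout females and 0.0591 to 0.129% in wild-type females, with WT replicate 3 the lowest. The share that background RNA or DNA had in the rises of scarce coding genes was not tested.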

How the data were processed

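RNA of whole SMGs from 12 mice of 8 weeks was sequenced as ribosome-depleted stranded paired-end libraries per the study's methods, while the labels name polyA RNA. The authors deposited estimated counts per gene, which they made with Salmon 1.10.1 (submitters' processing notes) on the GRCm39 Gencode M35 transcriptome. The authors also deposited normalized values, a signal in which each estimated count is divided by a factor per gene and library whose making is not given in the sources used here, and these served as offsets in 1 alternative.

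Here the estimated counts were rounded, filtered with filterByExpr and fitted with edgeR 4.0.16 in R 4.3.3 (quasi-likelihood test, TMM, 1 mean per group over all 12 libraries), and p-values were adjusted over the 17893 genes tested by the Benjamini-Hochberg method. Contrasts were knockout against wild type in females, the same in males, and their difference (the interaction). The SE was the log2 fold change divided by the root of the F statistic. Female libraries held 47031917 to 67742982 counts, and the median SD of log2 levels within a female group was 0.18. Groups came from the titles of the samples. Symbols and classes came from Gencode M39, which held 55563 of the 56065 identifiers. Promoter windows of GRCm38.p6 were matched by symbol. Tables used Python 3.11.15 and pandas 2.3.3.

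The comparison, the 42 gene lists and the tests were chosen with earlier results of these data known. Coding genes were named when they were among the 10 higher and 10 lower with the smallest adjusted p (past an absolute log2 fold change of 1, no overlap, a mean normalized count of at least 100), the 5 higher and 5 lower with the largest fold change, the 15 with the highest count per kilobase in wild-type females, up to 8 members per list by adjusted p with its defining members, or 1 of *Pou2f3*, *Aqp5*, *Sar1b*, *Arf4*, *Pip* and *Muc2*. Further list members that are named were chosen after their values were seen, and a few genes counted in the lists are not reported here by name. Alternatives were RLE, upper-quartile and coding-gene scaling, the deposited factors, no filter, at least 10 counts in every female library, female libraries alone, DESeq2 1.42.0, a replicate block, each library left out, and, chosen after seeing the data, library totals. On simulated data edgeR recovered 81% of 2-fold and 18% of 1.5-fold changes, with 6.6% of 106 calls false. The simulation changed 100 genes at each fold, equally up and down, among genes with a female mean of at least 100 counts. It held far fewer changes than the real comparison and no shift of composition between the groups. These rates can therefore not be taken as those of the calls above.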

Additional observations from a re-analysis of the deposited data

Results flagged for a closer look

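The genotype effect differed between females and males, by a test of the difference itself, in 3775 coding genes (edgeR interaction, adjusted p under 0.05), and in 2029, 2348 and 2503 when male WT 1, male WT 3 and male KO 3 were left out in turn. Of the genes named by size or p-value of the female change, *Npas2*, *Bmal1*, *Dbp* and *Ciart* did not pass this test. Their adjusted p for the interaction by edgeR was 0.45, 0.14, 0.088 and 0.81. The difference, as the female minus the male log2 fold change, was 0.31, 0.58, 0.60 and 0.19 in these genes and is given below for the others. Among genes higher in knockout females it was 2.41 for *Ybx2*, 1.31 for *Arhgef10*, 3.04 for *Tmem82*, 1.23 for *Brpf3*, 2.42 for *Kifc2*, 1.47 for *Ciz1*, 1.12 for *Zfp318* and 0.62 for *Tjp3*. It was 4.82 for *Sap25*, 4.25 for *Gm20518* and 3.08 for *Wdr97*, the genes of this set with low wild-type levels, and 6.31 for *Muc2*, whose knockout mean came from KO replicate 2. *Zfp318* encodes a nuclear zinc finger protein. Among genes lower in knockout females the difference was −1.29 for *Coq10b*, −0.998 for *Bhlhe41*, −1.47 for *Usp2* and −0.89 for *Slc46a3*. It was −0.71 for *Tspan4*, −0.91 for *Lcp1*, −0.76 for *Aldh1a7*, −1.51 for *Gpr155* and −1.13 for *Odc1*. The differences were −5.03 for *Dgat2* and −3.19 for *Mup5*, of which the former had WT replicate 3 as the highest female. For the coat GTPases they were −1.10 for *Sar1b* and −0.99 for *Arf4*. The sexes were compared with 3 mice a group, and the part that the position of the wild-type females had in these differences was not tested.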

How the results depend on the processing

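Of the alternatives run, library totals moved the counts of up-regulated and down-regulated coding genes most. With them, chosen after seeing the data, 5102 coding genes were up and 348 down, 2010 and 34 of them by more than 2-fold, and the median log2 fold change of coding genes was 0.42. The log2 fold changes of *Sdc1* and *Krt8* reversed to 0.0032 and 0.071 there. Coding genes down by more than 2-fold numbered 416 with the deposited factors as offsets and 106 with upper-quartile scaling, against 203. Each of the 5 counts and the coding median stayed within 1.5 times, or within 1 SD of replicates, under RLE, coding-gene scaling, both other filters, female libraries alone (where the sexes could not be compared) and DESeq2. Leaving out 1 library at a time gave 1343 to 1842 coding genes up (1343 without WT 3, 1355 without KO 1), 2903 to 3982 down, 433 to 751 up by more than 2-fold, 197 to 409 down by more than 2-fold (409 without WT 1, 371 without KO 2, 348 without WT 2) and 2029 to 4567 that differed between the sexes (2029, 2348 and 2503 without male WT 1, male WT 3 and male KO 3). Of 148 coding DEGs named in the text, 91 kept direction and call under every alternative, 57 lost the call under 1 or more, 4 of these with a reversed sign under 1. Without each female library in turn, *Itgam* had log2 fold changes of −2.49 to 0.034 (0.034 without WT 1) and *Ucp1* of −7.77 to 1.08 (1.08 without WT 3). The cause of these movements was not tested. Replicate numbers did not pair the libraries, since the deviations of same-numbered females correlated with r = 0.050, −0.10 and −0.11 over all genes tested. With the replicate block 1743 coding genes were up, 2816 down and 2544 differed between the sexes. At this depth a count of 3 limits the scarce immune and tuft cell genes, and 3 mice a group limit the folds that can be called.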
